A study of Mus musculus with 16 samples.

Results

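Aldehyde dehydrogenases oxidise aldehydes to carboxylic acids with NAD or NADP as the acceptor. The 10 genes Aldh1a1, Aldh1a2, Aldh1a7, Aldh1b1, Aldh1l1, Aldh2, Aldh3a2, Aldh3b1, Aldh8a1 and Aldh9a1 were followed in mouse liver by every probe that carried their RefSeq accession. This gave 11 probes of the 41174 on the array, for 10 of its 19096 genes with a symbol, since Aldh9a1 had 2 probes and each other gene had 1. All 11 probes were well above background on all 16 arrays, so every member was measured in every mouse.

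The liver RNA came from male mice aged 57 weeks, with 1 mouse per array and 4 mice in each of 4 groups. WT DEN and WT DEN + PB were wild-type C57BL/6J mice, and KO DEN and KO DEN + PB were mice with a null allele of Gadd45b in every cell. N-diethylnitrosamine (DEN), a liver carcinogen, was given to all 16 mice at 5 weeks of age and 90 mg/kg, so no group was free of it. Phenobarbital (PB), a drug that activates the nuclear receptor CAR and promotes liver tumours in rodents, was in the drinking water of the DEN + PB groups at 0.5 g/l from 7 weeks on. According to the methods the tissue was taken outside tumours. The stock name of the KO line names another strain in addition to B6, and whether strain differed between the genotypes was not tested.

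In liver, aldehyde dehydrogenases clear acetaldehyde from ethanol, aldehydes from lipid peroxidation and fatty aldehydes, and they make retinoic acid from retinaldehyde. Others serve folate metabolism, the breakdown of tryptophan and the synthesis of carnitine. Phenobarbital is known to induce some members of the family in rodents, and an older name of Aldh1a7, Aldh-pb, refers to the drug.

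A level is the log2 of the deposited processed signal minus the log2 of the 75th percentile of that array, so 0 is a signal equal to that percentile. This log2 signal orders samples for 1 probe and does not order genes. A change is a difference of group means on this scale with its standard error (SE) from limma. Called probes had an adjusted p under 0.05 (limma, Benjamini-Hochberg over 24457 tested probes) and changed by 1.5-fold or more. The targeted gene, Gadd45b, stood well above background on all 8 arrays from WT mice and on 0 of 8 from KO mice. The 3 CAR targets Cyp2b9, Cyp2b10 and Cyp2b13 were called higher with PB in both genotypes. The 75th percentile lay between 137 and 294 intensity units across arrays. Across all probes with a value on every array, tested or not, pairs of arrays within a group had r of 0.970 to 0.986. Pairs from different groups had r of 0.961 to 0.987, so this r hardly separates the groups. All 6 measured hepatocyte markers were above background on every array.

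Aldh1a1 and Aldh1a7 are close relatives that lie on chromosome 19 with no protein-coding gene between their starts. Their promoters are shown because both genes were higher on every KO DEN + PB array than on any KO DEN array. That separation was not particular to them, since Aldh1l1 and the brighter Aldh9a1 probe also had it, and their promoters are not shown. RefSeq (GRCm38.p6) gave 10 promoter windows for 9 of the 10 members, and Aldh2 was not matched. Of the 2 start sites listed for Aldh1a1, the window of 1 is nearly the same as that of Aldh1a7 next to the start. The 250 bases before the start are given 5′ to 3′ on the gene's strand, with the longest run shared by both in capitals, at chr19:20601718-20601967 on the plus strand for Aldh1a1 and at chr19:20727557-20727806 on the minus strand for Aldh1a7:
Aldh1a1: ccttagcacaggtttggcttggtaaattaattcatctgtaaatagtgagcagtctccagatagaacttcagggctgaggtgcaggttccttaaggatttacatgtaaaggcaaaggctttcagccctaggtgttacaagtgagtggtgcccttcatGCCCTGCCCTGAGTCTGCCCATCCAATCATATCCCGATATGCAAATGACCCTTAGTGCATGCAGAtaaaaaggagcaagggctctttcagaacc
Aldh1a7: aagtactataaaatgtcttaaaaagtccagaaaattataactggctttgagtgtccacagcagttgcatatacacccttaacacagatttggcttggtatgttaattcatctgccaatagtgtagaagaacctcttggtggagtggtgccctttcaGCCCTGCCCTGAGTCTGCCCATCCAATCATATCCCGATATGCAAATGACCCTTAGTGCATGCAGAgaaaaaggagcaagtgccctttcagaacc
The shared run of 65 bases lies from 94 to 30 bases before both starts, and 94 of the last 100 bases before the start were identical. The other Aldh1a1 window shared no run longer than 8 bases with that of Aldh1a7. The shared run holds the letters CCAAT, 72 to 68 bases before each start, and ATGCAAAT, 56 to 49 bases before each start, which do not overlap. CCAAT was found on either strand in 33.8% of 32851 promoter windows and ATGCAAAT in 1.6%. ATGCAAAT also lay in the windows of Aldh1a2 and Aldh8a1, and both searches were added after the windows had been read. Half-sites of nuclear receptors were searched on both strands as AGGTCA, present in 4607 windows, and AGTTCA, present in 3891. AGGTCA lay in the windows of Aldh1l1 and Aldh3b1 only, AGTTCA in no member's window, and a direct repeat of half-sites with 4 letters between them in no member's window and in 0.0244% of all windows. These matches describe letters only. Whether the array probes of Aldh1a1 and Aldh1a7 also bind the other transcript was not tested.

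The question whether PB changed these enzymes was asked first within each genotype. In WT, 0 of 11 probes were called, beside 0.666% of all tested probes. Unadjusted, 2 of the 11 passed p under 0.05, beside 7.29% of all probes. With PB 8 of 11 had a higher mean, beside 47.2% of all tested probes. The median change of the 11 was 0.11, and that of all tested probes was -0.02. In KO, 1 of 11 probes was called, higher, beside 1.05% of all tested probes called higher and 1.72% called in either direction. Unadjusted, 3 of 11 passed, beside 12.1%. The mean was higher with PB for 10 of 11, beside 50.1% of all tested probes, with a median of 0.21 against 0.000801. The groups did not overlap for 4 of the 11 probes in KO, beside 7.43% of all probes, and for 0 of 11 in WT, beside 4.58%. For the interaction, the PB effect in WT minus that in KO, 0 of 11 probes were called, beside 0.00818% of all tested probes. None of the 11 interactions passed an unadjusted p under 0.05 (limma), beside 6.03% of all tested probes. The 11 probes share arrays and scaling, so these counts are no result about the family.

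Aldh1a1, a cytosolic enzyme that oxidises retinaldehyde to retinoic acid and also clears lipid aldehydes, was the probe called with PB in KO. Its log2 signal was 7.71, 7.96, 8.07 and 7.84 on the KO DEN arrays. With PB it was 8.60, 8.41, 8.64 and 8.46, so every KO DEN + PB array lay above every KO DEN array. The change was 0.63 ± 0.15 (SE, 1.55-fold, adjusted p = 0.0389 by limma, 4 arrays per group). The two-sided exact permutation p was 0.0286, the smallest that 70 assignments allow. Any pair of groups of 4 arrays without overlap gives this p. Here and below it restates the lack of overlap, is not adjusted and is no second line of support. In WT the values were 8.34, 7.88, 8.24 and 7.93 with DEN. They were 8.27, 8.48, 8.36 and 8.70 with DEN + PB, and these groups overlapped. The WT change was 0.36 ± 0.15 (adjusted p = 0.572 by limma, exact permutation p = 0.0571). The difference of the effects, WT minus KO, was -0.27 with a 95% interval of -0.72 to 0.17 (adjusted p = 0.964 by limma), so a difference between the genotypes was not shown. On the slides that held both KO groups the change was 0.50, 0.70 and 0.68. On those that held both WT groups it was 0.15, 0.80 and 0.03.

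The call of Aldh1a1 was close to the threshold. With slide as a block the change was 0.65 and the adjusted p (limma) 0.0839. The call was lost under 7 of 12 other settings and when any of 8 arrays was left out, namely replicate 2 of WT DEN + PB, replicates 1, 2 and 4 of KO DEN and replicates 1 to 4 of KO DEN + PB. Over all 16 such omissions the change stayed between 0.57 and 0.69 and the adjusted p (limma) between 0.0321 and 0.128. No marker of leukocytes, endothelial cells, stellate cells or bile ducts was called with PB in KO, but most means were lower with PB. The median change was -0.48 for 8 leukocyte markers, with 0 higher, and -0.40 for 6 endothelial markers, with 1 higher and 4 at an unadjusted p under 0.05 (limma). It was -0.15 for 10 stellate and mesenchymal markers and -0.22 for 5 bile duct markers, with 0 higher in both. Of 6 hepatocyte markers 2 had a higher mean with PB in KO, and of 9 periportal hepatocyte markers 4. Both lists had a median change of -0.03 and 0 called. The summed hepatocyte level was 1017 to 1122 times the 75th percentile in KO DEN and 970 to 1223 in KO DEN + PB. Among 10 pericentral hepatocyte markers, 6 had a higher mean with PB in KO and 2 were called higher, beside 1.05% of all tested probes. The median change of the pericentral markers was 0.15. The summed level of the 10, in which the brightest markers weigh most, ran from 330 to 420 times the 75th percentile in KO DEN. In KO DEN + PB it ran from 433 to 603. The part of these cell types and zones in the Aldh1a1 values was not tested. In bulk tissue fewer cells of a type and less RNA per cell cannot be told apart.

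Aldh1a7, the relative of Aldh1a1 named above, had the values 6.17, 5.96, 6.44 and 6.31 in KO DEN. It had 6.65, 6.47, 6.73 and 6.52 in KO DEN + PB, again without overlap. Its change of 0.37 ± 0.16 did not pass (adjusted p = 0.351 by limma; exact permutation p = 0.0286). The WT groups overlapped, at 5.97 to 6.31 with DEN and 6.19 to 6.87 with DEN + PB. The interval of the difference between the effects ran from -0.52 to 0.44 on the log2 scale. Within slides the KO change was 0.55, 0.30 and 0.35.

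Aldh1a2, which makes retinoic acid in mesenchymal and mesothelial cells, had the largest change with PB in WT among the 11 probes. It was measured close to background, with 5.48 to 13.5 intensity units over the 16 arrays. In WT the log2 signal was -4.99, -5.43, -4.69 and -4.96 with DEN. It was -4.75, -4.33, -4.45 and -4.22 with DEN + PB, and 1 DEN array lay within the DEN + PB range. The change was 0.58 ± 0.20 (adjusted p = 0.367 by limma, exact permutation p = 0.0571) and did not pass. It turned to -0.03 when the background was corrected by normexp, and was 0.66, 0.97 and -0.05 within slides. The KO DEN arrays lay at -4.76 to -4.35. Their mean was 0.44 ± 0.20 above WT DEN (adjusted p = 0.225 by limma, exact permutation p = 0.0857). This difference was 0.28 with slide as a block, 0.65 and -0.06 within slides and -0.42 under normexp. The summed level of 6 mesothelial markers lay between 0.185 and 0.336 times the 75th percentile in WT DEN and between 0.425 and 0.706 in WT DEN + PB, and 1 of 4 tested was called higher, Krt19, which also marks bile ducts. That of 10 stellate and other mesenchymal markers was 82.5 to 100.4 and 88.2 to 108.6. In KO DEN the mesothelial sum was 0.326 to 0.586, and 1 of 4 tested was called higher than in WT DEN, Msln, while the stellate and mesenchymal sum was 65.0 to 81.2. Of the 6 mesothelial markers, 3 to 5 were well above background per WT DEN array, 3 to 4 per WT DEN + PB array and 2 to 5 per KO DEN array. The mesothelial sums thus include values near background. Of all tested probes 0.666% were called with PB in WT and 3.07% for KO against WT under DEN. The part of these cells in the Aldh1a2 values was not tested.

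**Figure D1:**
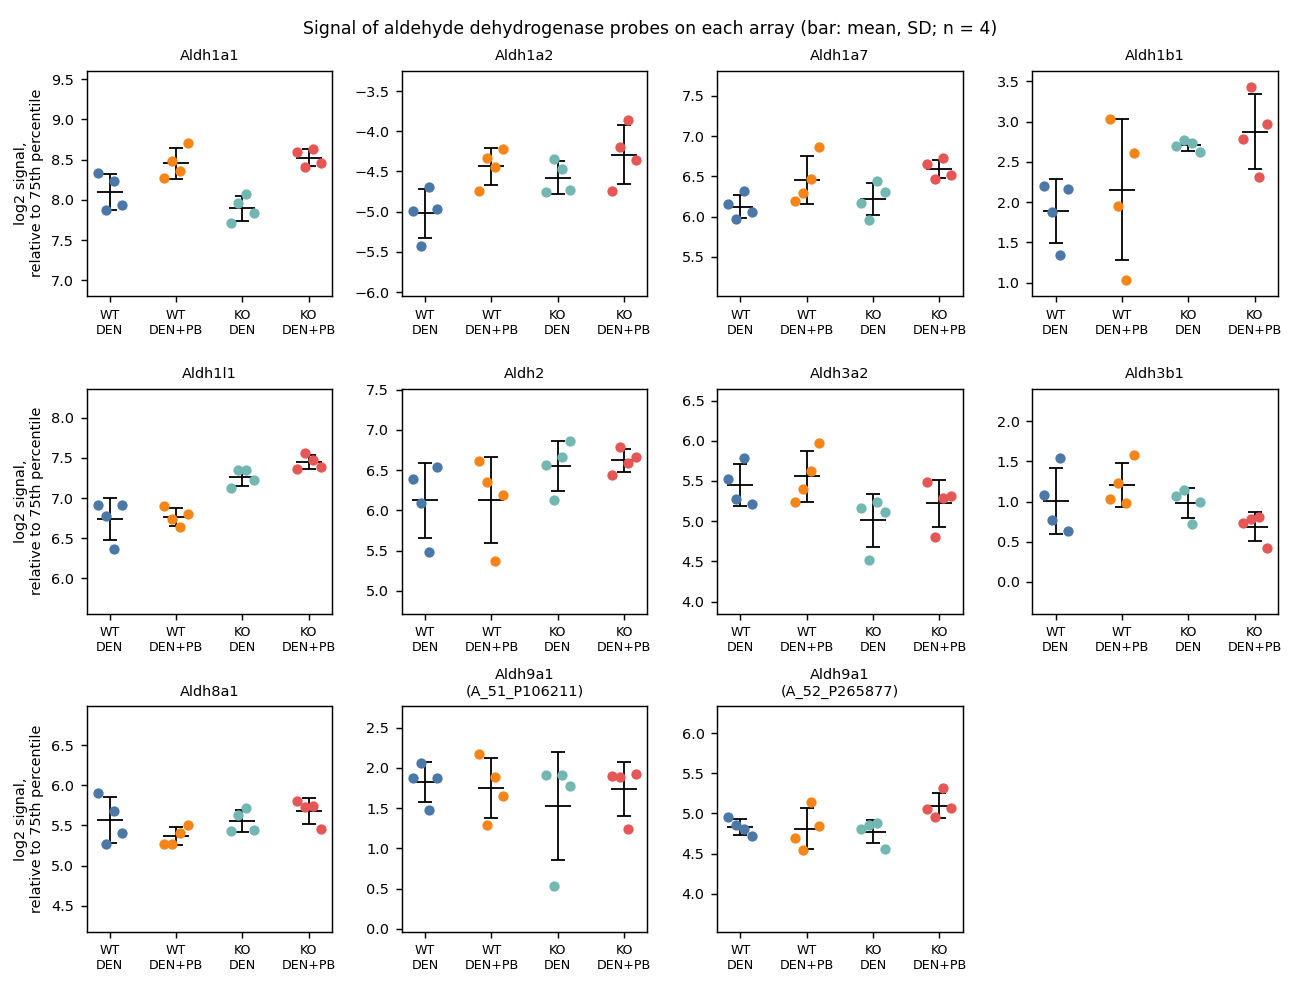
Log2 signal over the 75th percentile of each array (vertical axis, a span of 2.8 in every panel) for the 11 aldehyde dehydrogenase probes in the 4 groups (horizontal axis). Points are arrays, and bars give the mean and SD of 4 arrays. The 4 KO DEN + PB arrays of Aldh1a1, at 8.41 to 8.64, sit above the 4 KO DEN arrays, and all 8 KO arrays of Aldh1l1, at 7.12 to 7.56, sit above all 8 WT arrays, at 6.36 to 6.92.

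The genotypes were compared under each treatment. KO against WT under DEN, 0 of 11 probes were called, beside 3.07% of all tested probes, and 3 passed an unadjusted p under 0.05, beside 20.4%. The mean was higher in KO for 5 of 11, and the median change was -0.01 against 0.000317 for all tested probes. KO against WT under DEN + PB, 1 of 11 was called, higher, beside 2.13% of all tested probes called higher and 6.74% called in either direction. Unadjusted, 2 of 11 passed, beside 23% of all probes. The mean was higher in KO for 8 of 11, beside 55.8% of all tested probes, with a median of 0.14 against 0.05. The groups did not overlap for 2 of 11 probes under DEN, beside 11.9% of all probes, and for 2 of 11 under DEN + PB, beside 16.1%. With 11 probes these shares are no result about the family.

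Aldh1l1, which oxidises 10-formyltetrahydrofolate to tetrahydrofolate and carbon dioxide, was the probe called between genotypes. Under DEN + PB its log2 signal was 6.90, 6.73, 6.64 and 6.81 in WT. In KO it was 7.37, 7.56, 7.47 and 7.39. The KO mean was higher by 0.68 ± 0.14 (SE; 1.60-fold, adjusted p = 0.00794 by limma, exact permutation p = 0.0286, 4 arrays per group). Under DEN the values were 6.91, 6.78, 6.36 and 6.92 in WT. They were 7.12, 7.34, 7.35 and 7.22 in KO, so all 8 KO arrays lay above all 8 WT arrays. The change under DEN was 0.51 ± 0.14, which did not pass (1.43-fold, adjusted p = 0.0572 by limma, exact permutation p = 0.0286). The PB effect was 0.03 in WT, with a 95% interval of -0.27 to 0.32, and 0.19 in KO, with an interval of -0.11 to 0.49. The KO groups did not overlap, at 7.12 to 7.35 with DEN and 7.37 to 7.56 with DEN + PB. The interval of the interaction, the PB effect in WT minus that in KO, was -0.58 to 0.26.

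The Aldh1l1 difference was also seen slide by slide. KO minus WT under DEN + PB was 0.65, 0.56, 0.66 and 0.83 on the 4 slides, and under DEN it was 0.43 and 0.76 on the 2 slides that held both groups. With slide as a block the change under DEN + PB was 0.68 (adjusted p = 0.0220 by limma). It was called whichever of the 16 arrays was left out, with an adjusted p (limma) of 0.00259 to 0.0303. It was not called with normexp, quantile normalization or the unscaled series table, where it was 0.93, 0.45 and 0.34.

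Markers of other cells moved with the genotype under DEN + PB. Of all tested probes 6.74% were called in this comparison in either direction, and 2.13% were called higher. Of 8 tested leukocyte and Kupffer cell markers, 7 were called lower in KO, and the summed level of 9 was 25.3 to 29.0 times the 75th percentile in WT and 8.79 to 13.8 in KO. Lower calls were made for 2 of 6 endothelial, 5 of 10 stellate and mesenchymal, 3 of 5 bile duct and 1 of 4 mesothelial markers, the last being Krt19, which is on both of these lists. Of 6 hepatocyte markers 1 was called higher, Tat. Periportal hepatocyte markers gave 5 of 9 called higher and 1 lower, with summed levels of 495 to 607 in WT and 704 to 794 in KO. Under DEN, 3 of 8 leukocyte markers and 2 of 6 endothelial markers were called lower in KO and no hepatocyte marker was called. The share of all tested probes called under DEN was 3.07%. The part of these cell types in the Aldh1l1 values was not tested.

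The 5 tested genes whose level over the 16 arrays was most like that of Aldh1l1, of 13305 compared, were Tnrc6c, Cpsf3, Lrrk1, Slc35d1 and Kansl3. Their Pearson r with Aldh1l1 was 0.96, 0.93, 0.93, 0.92 and 0.92. Since the arrays fall into a WT and a KO cluster for Aldh1l1, these values carry the genotype. With group means removed r was 0.84, 0.81, 0.92, 0.76 and 0.72. The 5 genes were picked for their high r over these same arrays, which favours high values here too, so both sets of r are descriptions with no test.

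**Figure D2:**
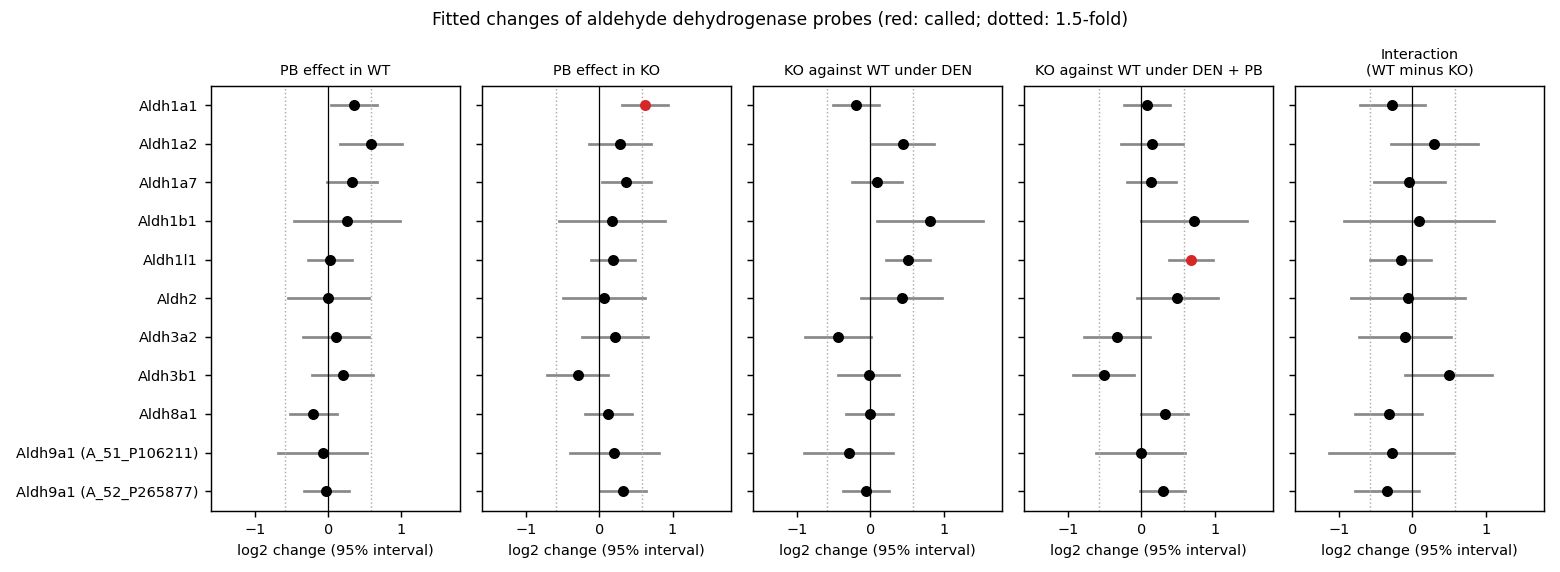
Fitted log2 change (horizontal axis) with its 95% interval for each of the 11 probes (vertical axis) in the PB effect in WT and in KO, KO against WT under DEN and under DEN + PB, and the interaction, PB effect in WT minus that in KO. Red points are called, namely Aldh1a1 at 0.63 with PB in KO and Aldh1l1 at 0.68 for KO against WT under DEN + PB, and the interval of every interaction includes 0.

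The mitochondrial enzymes Aldh2, the main acetaldehyde dehydrogenase of liver, and Aldh1b1, its close relative, were not called in any contrast. Aldh1b1 had 2.20, 1.88, 1.34 and 2.16 in WT DEN. In KO DEN it had 2.69, 2.77, 2.73 and 2.62, all above the WT DEN arrays. The KO mean was higher by 0.81 ± 0.34 and did not pass (1.75-fold, adjusted p = 0.194 by limma, exact permutation p = 0.0286). Its spread differed between groups, with an SD of 0.06 in KO DEN and 0.87 in WT DEN + PB, where the arrays ran from 1.03 to 3.03. On the slides that held both groups the difference under DEN was 0.57 and 1.36, and with slide as a block it was 1.20 (adjusted p = 0.104 by limma). Aldh2 ranged from 5.36 to 6.86 over the 16 arrays. The WT means were 6.12 ± 0.47 (SD, n = 4) with DEN and 6.13 ± 0.54 with DEN + PB, and the KO means were 6.55 ± 0.31 and 6.62 ± 0.14. Replicate 3 was the lowest array of both WT groups for Aldh2, Aldh1b1 and Aldh1l1 alike.

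Aldh3a2, which oxidises long-chain fatty aldehydes, ranged from 4.52 to 5.98 and was not called. The WT means were 5.45 ± 0.26 (SD, n = 4) with DEN and 5.56 ± 0.32 with DEN + PB, and the KO means were 5.01 ± 0.33 and 5.22 ± 0.29. Aldh3b1, which handles aldehydes of lipid peroxidation, had 1.03, 1.23, 0.98 and 1.58 in WT DEN + PB. It had 0.73, 0.78, 0.81 and 0.43 in KO DEN + PB, without overlap. The change of -0.52 ± 0.20 did not pass (adjusted p = 0.129 by limma, exact permutation p = 0.0286), and within slides it was -0.80, -0.85, -0.24 and -0.16. It was called, at -0.85, in the unscaled series table, where the median of all probes was also lower, at -0.29. The drop in leukocyte markers given above is in the same comparison. Under DEN, 3 of 8 leukocyte markers were called lower in KO. There the Aldh3b1 groups overlapped, with a change of -0.02 ± 0.20 (adjusted p = 0.958 by limma). The part of leukocytes in the Aldh3b1 values was not tested.

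Aldh8a1, which acts on 2-aminomuconate semialdehyde in tryptophan breakdown, ranged from 5.27 to 5.91 and all group means lay between 5.36 and 5.68. Aldh9a1, which makes a precursor of carnitine from trimethylaminobutyraldehyde, was read by 2 probes. The brighter probe, A_52_P265877, had 4.80, 4.85, 4.88 and 4.56 in KO DEN. It had 5.06, 4.95, 5.31 and 5.07 in KO DEN + PB, without overlap, a change of 0.32 ± 0.15 that did not pass (adjusted p = 0.384 by limma, exact permutation p = 0.0286) and was 0.22, 0.15 and 0.59 within slides. The other probe, A_51_P106211, ranged from 0.53 to 1.91 in KO DEN and from 1.24 to 1.92 in KO DEN + PB, and its groups overlapped. Its change was in the same direction, at 0.21 ± 0.29, and did not pass (adjusted p = 0.888 by limma, exact permutation p = 0.629). After group means were removed the 2 probes had r = -0.10 over 16 arrays.

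Some members varied together from mouse to mouse within groups and others did not. With group means removed, r was negative for 26 of the 55 pairs of probes and positive for 29. Among the highest, Aldh1a7 and Aldh3a2 had r = 0.86 and rho = 0.84 over the 16 arrays, Aldh1a1 and Aldh8a1 had r = 0.82 and rho = 0.84, and Aldh1a1 and Aldh1a7 had r = 0.68 and rho = 0.71. A different set held Aldh1b1, Aldh2 and Aldh1l1, with r of 0.75 for Aldh1b1 and Aldh2, 0.68 for Aldh1l1 and Aldh2 and 0.65 for Aldh1b1 and Aldh1l1. Without the 2 arrays farthest from the median of the gene named first, r was 0.83, 0.76 and 0.62 for the former pairs and 0.50, 0.58 and 0.65 for the latter. With slide removed as well, r was 0.85, 0.86 and 0.86, and 0.82, 0.70 and 0.85. The points of a pair share the array and its scaling, and the pairs were picked from the 55 for their high r, so these are descriptions with no test. The most negative pair was Aldh1a2 and the dimmer Aldh9a1 probe, at -0.67.

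**Figure D3:**
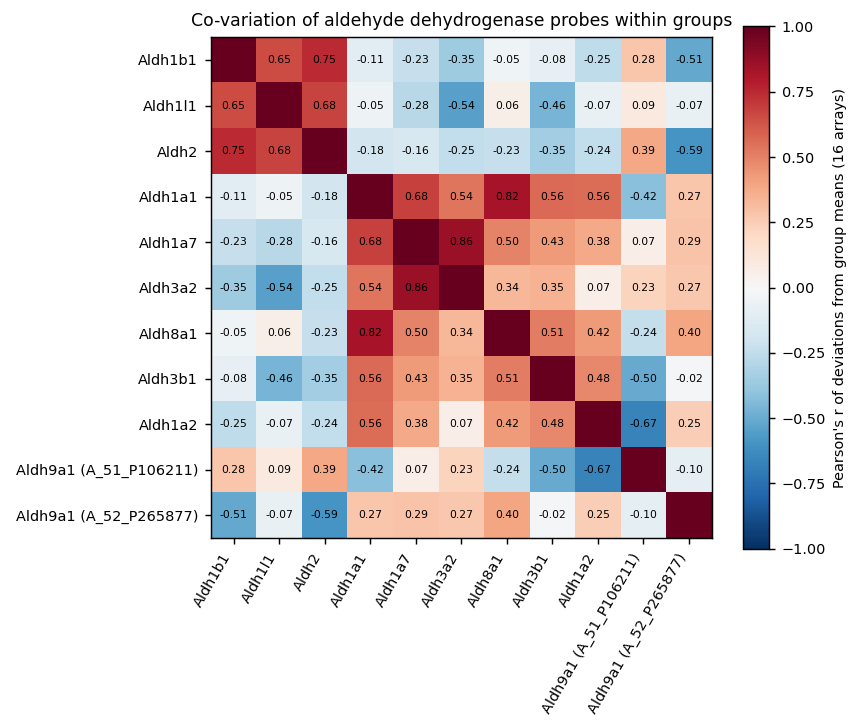
Pearson's r between each pair of the 11 probes over 16 arrays after the 4 group means were removed (colour and printed value, both axes list probes, order chosen after the values were seen). Aldh1b1, Aldh1l1 and Aldh2 form 1 block, at 0.65 to 0.75, and Aldh1a1 goes with Aldh1a7 and Aldh8a1, at 0.68 and 0.82.

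The wider pathways were read from gene lists. Of 11 other aldehyde dehydrogenases 10 were tested, and the only call was Aldh1a3, a further retinaldehyde dehydrogenase, lower in KO under DEN + PB. Its mean log2 signal was -2.50 in WT DEN + PB and -3.76 in KO DEN + PB, a change of -1.26 ± 0.31 (adjusted p = 0.0206 by limma). That call was lost when replicate 3 or 4 of WT DEN + PB or replicate 1 or 2 of KO DEN + PB was left out, with an adjusted p (limma) of 0.0526 to 0.0664. It was also lost with no filter, without moderation, under normexp (-0.58) and under normexp without outlying backgrounds (-0.21). Aldh3a1 was above background on 0 of 16 arrays. The median change of the 10 was 0.18 and 0.01 with PB in WT and KO, and for the genotype, KO minus WT, 0.15 with DEN and 0.01 with DEN + PB.

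Of 16 tested genes of folate one-carbon metabolism, the pathway of Aldh1l1, none was called for KO against WT under DEN + PB, where 6 passed an unadjusted p under 0.05, beside 23% of all tested probes. Under DEN 1 was called, higher in KO, beside 3.07% of all tested probes. With PB 0 were called in WT. Mthfd1l, the mitochondrial formate producer, was higher in KO than in WT under DEN by 1.15 ± 0.30 (adjusted p = 0.0477 by limma). With PB in KO it changed by -1.25 ± 0.30 (adjusted p = 0.0424 by limma). Each Mthfd1l call was lost on leaving out any 1 of 10 arrays, among the 16 tried, with an adjusted p (limma) of up to 0.135 and 0.116. For both these were KO DEN replicates 1 to 4, KO DEN + PB replicates 2 and 3, WT DEN + PB replicate 2 and WT DEN replicates 1 and 4, with WT DEN replicate 2 for the former and KO DEN + PB replicate 1 for the latter. With slide as a block both calls were lost, at 0.98 (adjusted p = 0.193 by limma) and -1.17 (adjusted p = 0.115). They were lost under 8 and 5 of 12 other settings, with 0.31 and -0.58 under normexp. Both changes share the KO DEN arrays.

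Of 18 tested genes of retinoid metabolism and retinoic acid targets, none was called with PB in either genotype. Bco1, which cleaves beta-carotene to retinaldehyde, was higher in KO under DEN by 1.28 ± 0.27 (adjusted p = 0.0187 by limma). This call was lost without replicate 3 of WT DEN or replicate 2 or 4 of KO DEN, with an adjusted p (limma) of 0.0591 to 0.0638, and with slide as a block, at 1.03 and 0.0902. It was lost under 5 of 12 other settings in all, with 0.36 under normexp. Under DEN + PB Lrat, which esterifies retinol and marks stellate cells, changed by -1.62 ± 0.35 (adjusted p = 0.00978 by limma), beside the stellate markers given above. Rdh13, a retinol dehydrogenase, changed by 0.73 ± 0.20 (adjusted p = 0.0371 by limma), a call lost without replicate 2 or 4 of WT DEN + PB or replicate 2 or 4 of KO DEN + PB, with an adjusted p (limma) of 0.0858 to 0.129. With slide as a block its adjusted p (limma) was 0.0559, and the call was lost under 8 of 12 other settings, with 0.15 under normexp. The Lrat call was lost under normexp, at -1.19.

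Of 13 tested genes of fatty aldehyde, phytol and omega oxidation, Cyp4f15, a fatty acid omega-hydroxylase, was higher in KO under DEN + PB by 0.64 ± 0.13 (adjusted p = 0.00693 by limma). It was 0.58, under 1.5-fold, without replicate 2 of WT DEN + PB. The call was also lost under quantile normalization (0.54), in the unscaled series table (0.30) and under normexp (0.90, adjusted p = 0.287 by limma). Far1, which reduces fatty acyl-CoA to fatty alcohol, changed by -0.99 ± 0.20 (adjusted p = 0.00692 by limma), a call lost under normexp (-0.56) and under normexp without outlying backgrounds (-0.35). No gene of this list was called in the other contrasts. No gene was called in any contrast among 11 tested enzymes of alcohols and aldehydes, which include the alcohol dehydrogenases, 7 of tryptophan and kynurenine breakdown and 3 of carnitine synthesis, the pathways of Aldh2, Aldh8a1 and Aldh9a1.

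**Figure D4:**
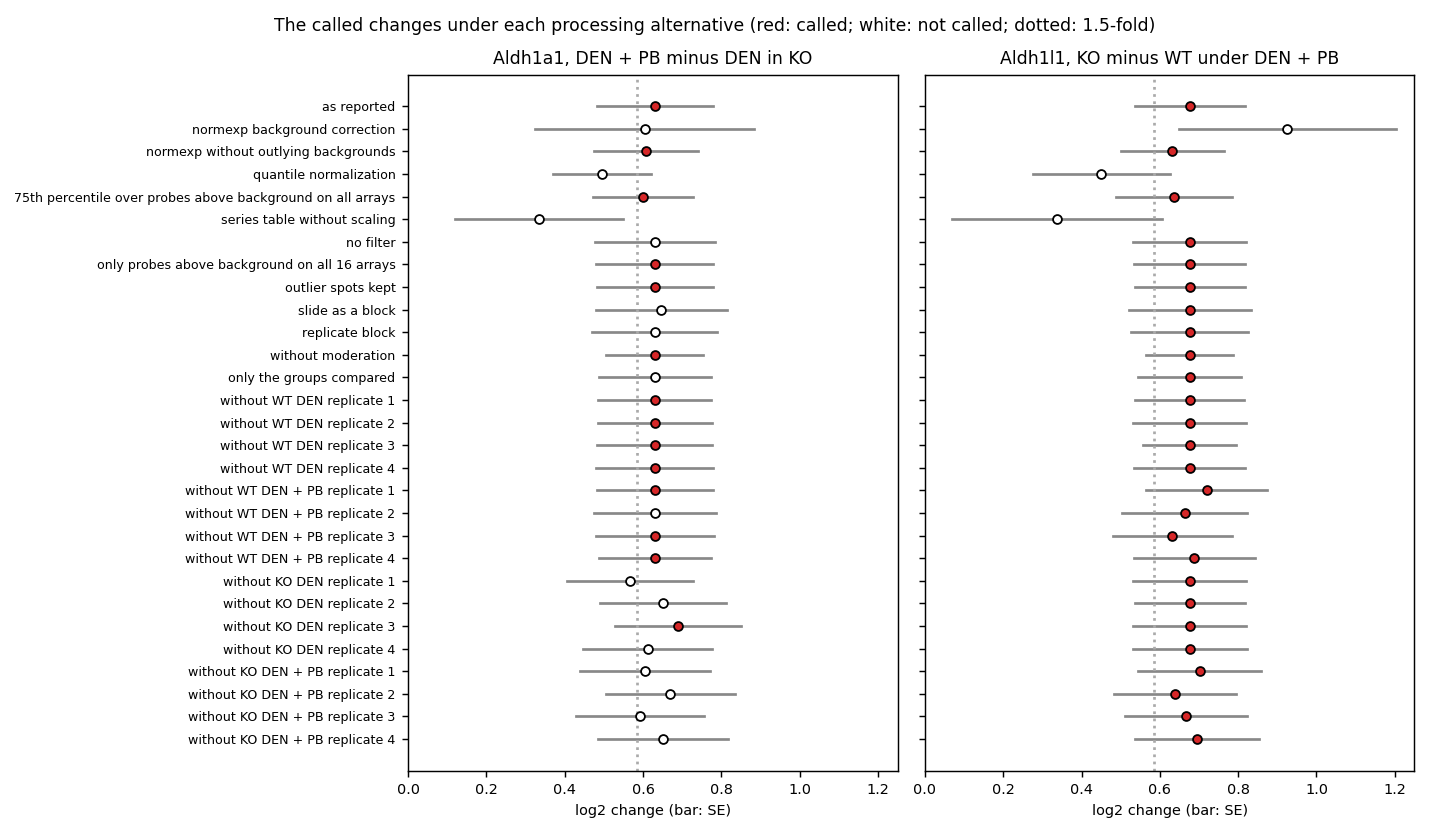
Log2 change (horizontal axis; bars are the SE) of Aldh1a1 with PB in KO and of Aldh1l1 for KO against WT under DEN + PB as reported, under 12 other settings and with each of the 16 arrays left out (vertical axis). Red points are called, white points are not, and the dotted line marks 1.5-fold. Aldh1a1 stays between 0.33 and 0.69 and Aldh1l1 between 0.34 and 0.93, so neither changes direction.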

How the data were processed

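RNA from 16 mouse livers was hybridised to Agilent 1-colour (Cy3) whole mouse genome arrays, 1 mouse per array, 4 per group. The authors deposited scanner files of Agilent Feature Extraction 12 (12.0.3.1 in the file headers) that hold a processed signal, an intensity in linear units corrected for background by the software and not scaled between arrays. A series table of intensity was also deposited by the authors, and its columns equalled the unscaled means of the processed signal within 5e-04%. The normalization behind the study's own test is not given in the sources used here.

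Control spots and spots with outlier marks (71 to 122 per array) were left out, spots of a probe were averaged, and log2 values were set relative to each array's 75th percentile. Tested probes were those the scanner software marked well above background throughout at least 1 group of 4 arrays, 24457 of 41174 (59.4%). No spot was saturated. A RefSeq gene table (GRCm38.p6) gave symbols to 28223 probes by their accessions. The array design used mm9, so no array coordinates are given. Models of 4 group means were fitted with limma 3.58.1 (lmFit, eBayes; R 4.3.3), tested on simulated data, and 4 arrays against 4 were compared by exact permutation. The number of arrays limits the precision. Sequences and figures used Python 3.11.15, pandas 2.3.3 and matplotlib 3.10.9.

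Members and lists were chosen with earlier results of these data known. Named are all members, in full where called, up to 3 called genes per list and contrast, the 5 genes most like the member with the largest called change, Gadd45b and the CAR targets. Alternatives were normexp background correction (offset 50), other scalings, filters, slide and replicate blocks, no moderation, fewer groups and each array left out. The planned mean signal was not in the scanner files used here, so normexp used the median signal, chosen after seeing the data. A planned comparison of protein sequences was not run. A result of the folate list is not reported here.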

Additional observations from a re-analysis of the deposited data

Results flagged for a closer look

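The dimmer Aldh9a1 probe, A_51_P106211, had a low array in both KO groups, by a test that sets the gap of the most extreme array against the range of its group (Dixon's, 4 arrays). Replicate 2 of KO DEN had a log2 signal of 0.53 beside 1.77 to 1.91 on the other KO DEN arrays. Replicate 3 of KO DEN + PB had 1.24 beside 1.89 to 1.92 on the other arrays of that group. The brighter Aldh9a1 probe had 4.85 and 5.31 on these arrays and no such gap. These were 2 of 44 groups of values tested over the 11 probes, and chance flags about 1 in 20.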

How the results depend on the processing

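The 2 called changes of aldehyde dehydrogenases kept their direction under all 28 alternatives, and the calls depended on the processing. Aldh1a1 with PB in KO was 0.60 (adjusted p = 1.00, limma) under normexp background correction, 0.49 (0.0584) under quantile normalization, 0.33 (0.491) in the unscaled series table, where the median of all probes was -0.29, and unchanged in size with no filter (0.101), a replicate block (0.0722) or only the groups compared (0.0849). Under these and with slide as a block 0 members were called with PB in KO. For KO against WT under DEN + PB 0 members were called under normexp and quantile normalization, and in the unscaled table, with a median of -0.29, the 1 call was Aldh3b1 in place of Aldh1l1. The cause was not tested. Aldh1a2 reversed under normexp, to -0.026 with PB in WT and -0.42 for KO against WT under DEN. Of the 45 member changes with an unadjusted p of 0.05 or more, 35 turned sign under at least 1 alternative and none was called.

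Over all probes, 163 were called with PB in WT (21 with normexp, 106 in the unscaled table) and 421 in KO (63 with normexp, 213 in the unscaled table, 244 with no filter, 274 with only the groups compared). KO against WT under DEN gave 750 calls (21 with normexp, 404 with normexp without outlying backgrounds, 117 in the unscaled table, 280 with no filter, 299 with slide as a block, 377 without moderation, 372 with only the groups compared), and under DEN + PB 1648 (50, 617 and 1042 with normexp, normexp without outlying backgrounds and no filter). The interaction gave 2 calls (1474 probes at an unadjusted p under 0.05), 0 with normexp, without moderation or with only probes above background on all arrays, 1 with normexp without outlying backgrounds, quantile normalization or no filter, and 4 in the unscaled table. Leaving out each array gave 115 to 175 calls with PB in WT, 269 to 488 in KO, 1 to 6 for the interaction, 304 to 878 for KO against WT under DEN and 1014 to 1941 under DEN + PB, and 0 to 1 member called with PB in KO. Counts moved over 1.5 times with PB in KO without replicate 1 (269) or 4 (279) of KO DEN or replicate 2 of KO DEN + PB (274), under DEN without replicate 1 (398) or 3 (304) of WT DEN or 2 (309) or 4 (329) of KO DEN, and under DEN + PB without replicate 4 of WT DEN + PB (1046) or 2 of KO DEN + PB (1014).

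No pairing of samples by replicate number was seen. Deviations of same-numbered arrays from different groups correlated at -0.21 to 0.36, with 6 of 24 pairs over 0.1. Those of arrays with other numbers correlated at -0.49 to 0.54, with 20 of 72 over 0.1. With the replicate block 168, 404, 2, 977 and 1724 probes were called for PB in WT, PB in KO, the interaction and KO against WT under DEN and DEN + PB.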
